A study of Rattus norvegicus with 27 samples.

Results

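Collagen genes were followed in cultured rat Schwann cells, the glia of peripheral nerves, before, during and after treatment with dbcAMP (dibutyryl cyclic AMP), which enters cells and acts like the messenger cyclic AMP. A gene was taken as a collagen gene where its row in the table of cell mRNA counts was named Col, a number, the letter a and a number, which gave 27 of 17315 rows. The cells were primary rat Schwann cells from a commercial supplier, grown on coated plates, and the 9 cell mRNA libraries fell into 3 stages of 3 replicates each. Undifferentiated cells received no dbcAMP, and the labels do not state their medium further. Differentiated cells were starved of serum overnight and then kept for 72 h with dbcAMP at 1 mM in a medium of low serum. Dedifferentiated cells had the same treatment and then spent 72 h without dbcAMP in a complete medium with more serum, forskolin and neuregulin. Medium and dbcAMP changed together between stages and cannot be told apart. Forskolin itself raises cyclic AMP.

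Collagens are secreted proteins built of 3 chains wound into a helix, and many types mix chains from different genes. Fibrillar collagens such as types I, III and V assemble into the fibrils of connective tissue, basement membrane collagens such as type IV form sheets under cells, and FACITs (fibril-associated collagens with interrupted helices) sit on the surface of fibrils. In peripheral nerve each Schwann cell unit is wrapped in its own basement membrane of type IV collagen and laminin, with collagen fibrils outside it, and the Col5a3 chain is known as a type V collagen chain that Schwann cells secrete. Cyclic AMP is used in culture to bring Schwann cells towards a myelinating state.

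The 9 libraries held 10058735 to 16212278 estimated counts each. Levels are given as CPM, counts scaled so that every library has the same total, so 3 counts correspond to 0.185 to 0.298 CPM. They are not divided by gene length, so levels are compared between stages and not between genes, except as count ratios whose change between stages does not depend on length. Changes are log2 ratios from edgeR's quasi-likelihood test over all 10372 genes that passed the filter on low counts, and a change counts as called where the adjusted p (Benjamini-Hochberg) is under 0.05. Of the 27 collagen genes, 19 passed this filter. The 7 Schwann cell markers in the table summed to 8242 to 9425 CPM in undifferentiated, 8445 to 11076 CPM in differentiated and 18542 to 21433 CPM in dedifferentiated cells. The 10 fibroblast markers summed to 12.0 to 25.4, 6.41 to 7.81 and 8.57 to 9.24 CPM at those stages, and Lum, Dpt and Cd34 among them had at most 3 counts in any library. Osr2 made up most of the undifferentiated sum, at 9.19 to 21.5, 0.368 to 0.617 and 3.54 to 4.97 CPM. The others did not move together. Twist2 went from 0 to 0.981 CPM before dbcAMP to 1.62 to 2.71 CPM under it, and Prrx1 from 0.322 to 0.393 CPM to 0.0617 to 0.295 CPM. Pericyte and smooth muscle markers (7 genes, Rgs5, Abcc9 and Kcnj8 at 3 counts or fewer in each library) summed to 5.82 to 11.3, 6.85 to 8.18 and 8.31 to 14.6 CPM. Among them Acta2 went from 2.49 to 3.94 CPM before dbcAMP to 0 to 0.442 CPM under it. Notch3 went from 0.589 to 1.69 CPM to 2.90 to 3.61 CPM. Endothelial markers (7 genes, Cdh5 and Emcn at 3 counts or fewer) summed to 10.6 to 10.8, 7.66 to 10.5 and 17.3 to 27.6 CPM. Macrophage markers (7 genes, Aif1, Adgre1 and Itgam at 3 counts or fewer) summed to 0.403 to 2.29, 3.95 to 5.17 and 2.11 to 3.90 CPM. The 4 perineurial markers summed to 132 to 178, 233 to 333 and 279 to 352 CPM at the 3 stages, with Cldn1 and Lypd2 at 3 counts or fewer in each library. Itgb4 made up most of this sum, at 96.1 to 151, 180 to 300 and 239 to 312 CPM. Slc2a1 was at 25.2 to 36.4, 32.2 to 52.3 and 39.2 to 39.9 CPM. The part of these other markers in the collagen results was not tested. In such bulk libraries, fewer cells of a type and less RNA per cell cannot be told apart.

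Collagen transcripts made up a smaller share of the library under dbcAMP than before it, and their share was still below the start 72 h after withdrawal. They took 5.10, 4.86 and 4.94% of all counts in the undifferentiated libraries, 3.02, 2.77 and 3.51% in the differentiated and 3.60, 3.11 and 3.19% in the dedifferentiated ones. The undifferentiated libraries lay above all others, and the other stages overlapped. Of 45 collagen genes listed by class, these shares cover 27. Of the 19 collagen genes tested, 4 rose and 9 fell in differentiated against undifferentiated cells (edgeR). Over all genes tested, 59.6% were called in this comparison, 31.7% higher and 27.9% lower. The median log2 change of the 19 was -0.37, beside 0.05 over all genes tested. After withdrawal, 9 of the 19 rose and 3 fell against differentiated cells (46.4% of all genes called, 23.2% in each direction), with a median of 0.71 beside -0.01. Dedifferentiated against undifferentiated cells had 4 collagen genes higher and 8 lower (29.4% of all genes called, 16.1% higher and 13.3% lower), with a median of -0.38 beside 0.02. The 13 of 19 called under dbcAMP is close to the share over all genes. The libraries of the 2 stages compared did not overlap for 13 of the 19 under dbcAMP (66.3% of all genes), 12 after withdrawal (58.5%) and 15 against the start (43.9%). These counts cover the 19 that passed the filter and not all 27.

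**Figure D1:**
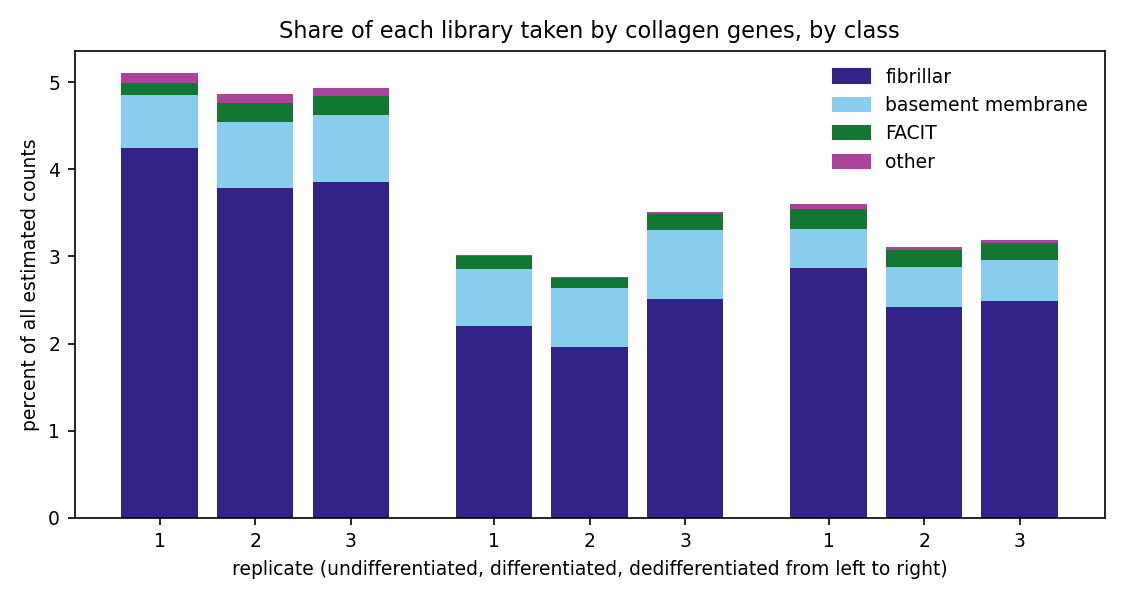
Percent of all estimated counts of each of the 9 cell mRNA libraries taken by collagen genes, as stacked bars coloured by class, with replicates 1 to 3 of the undifferentiated, differentiated and dedifferentiated stages from left to right. The fibrillar class forms the greater part of each bar, and the 3 undifferentiated bars, at 4.86% to 5.10%, are the tallest.

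The 4 classes did not move as blocks. The sums below cover 10 of 11 fibrillar, 5 of 8 basement membrane, 4 of 10 FACIT and 8 of 16 remaining genes listed. Fibrillar collagens summed to 39585 ± 2487 CPM in undifferentiated, 22243 ± 2799.9 CPM in differentiated and 25898 ± 2430.2 CPM in dedifferentiated cells (mean ± SD, n = 3 each). They made up 79.7%, 71.8% and 78.4% of the collagen counts. Basement membrane collagens summed to 7104 ± 919, 7101 ± 719 and 4618 ± 117 CPM. Their share of the collagen counts was therefore higher under dbcAMP, at 23.0% against 14.3% before and 14.1% after, while their summed level before and under dbcAMP differed by less than the spread between replicates. FACITs summed to 1975 ± 453, 1476 ± 351 and 2081 ± 203 CPM, and the remaining collagens to 1002 ± 103, 169.9 ± 16.1 and 409.7 ± 94.8 CPM. The FACIT sum and that of the remaining collagens follow the gene with most counts. Without Col16a1 the FACIT sum had a log2 ratio of 2.08 in differentiated against undifferentiated cells in place of -0.42, and without Col7a1 the sum of the remaining collagens had 0.87 in place of -2.56. Without Col1a1 the fibrillar sum had -0.53 in place of -0.83 under dbcAMP and -0.045 in place of 0.22 after withdrawal. The basement membrane sums moved by less than the spread between replicates without Col4a1.

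Among the fibrillar genes, both chains of type I collagen, the main fibril-forming collagen, fell under dbcAMP, with a larger log2 change for Col1a1. Of the 9 fibrillar genes tested, 2 rose and 6 fell under dbcAMP, 4 rose and 1 fell after withdrawal, and 1 was higher and 5 lower at the end than at the start, where 59.6%, 46.4% and 29.4% of all genes tested were called. Col1a1 stood at 19654, 15725 and 16080.1 CPM in the undifferentiated, 7147, 5335 and 7609 CPM in the differentiated and 12643, 9811 and 10027 CPM in the dedifferentiated libraries. The 3 stages did not overlap, and the dedifferentiated libraries lay between the others. Col1a1 fell by 1.42 on the log2 scale under dbcAMP (SE 0.174, adjusted p = 4.53e-05, edgeR), a 2.68-fold drop. After withdrawal it rose by 0.71 (SE 0.172, adjusted p = 0.00675) and stayed 1.64-fold below undifferentiated cells (adjusted p = 0.0101). Col1a2 was at 9408, 8637 and 8899 CPM before dbcAMP, 7192, 6588 and 7976 CPM under it and 6707, 6123 and 6535 CPM after. Each undifferentiated library was above each later one, and the later stages overlapped. Its log2 change was -0.37 under dbcAMP (SE 0.107, adjusted p = 0.0119) and -0.53 in dedifferentiated against undifferentiated cells (adjusted p = 0.00419). The step from differentiated to dedifferentiated cells was not called for Col1a2 (log2 -0.16, adjusted p = 0.259). With only the 6 libraries of the first sequencing project, the calls of Col1a1 (adjusted p = 0.0941) and Col1a2 (adjusted p = 0.0664) against undifferentiated cells were lost, as was that of Col1a2 under dbcAMP (adjusted p = 0.0509). These were the highest adjusted p of the 3 results over the 9 alternative settings and the 9 fits without 1 library, and the others stayed under 0.05.

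Type I collagen is usually assembled from chains of both genes in a fixed proportion, and the count ratio of the genes took a lower range under dbcAMP. Col1a1 to Col1a2 stood at 2.09, 1.82 and 1.81 in undifferentiated, 0.994, 0.810 and 0.954 in differentiated and 1.89, 1.60 and 1.53 in dedifferentiated libraries. Under dbcAMP all 3 libraries were below all others, and the undifferentiated and dedifferentiated libraries overlapped. The log2 ratio of the differentiated to the undifferentiated value was -1.05 and that of the dedifferentiated to the differentiated value was 0.86. Such ratios were computed for 6 pairs of genes in 3 comparisons, 18 tests in all. A two-sided exact permutation test of 3 against 3 libraries cannot go below p = 0.1, which pairs without overlap reach, and the Benjamini-Hochberg adjusted value is then 0.12, so none passes 0.05.

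Type V collagen, which joins type I in fibrils and limits their diameter, had chains that moved in opposite directions under dbcAMP. The 250 bases upstream of the annotated starts of its 3 genes are printed from RefSeq (build GRCr8). That of Col7a1, the gene of greatest fall under dbcAMP among the 19 collagen genes tested, is printed with them. These windows serve as examples. Col14a1 and Col23a1 rose more under dbcAMP than Col5a3, and Col27a1 fell about as much as Col5a2. Capitals mark 4 motifs on either strand, where the other strand shows as the reverse complement. They are the CCAAT box, the GC box with the letters GGGCGG, the TATA box with the letters TATAAA, and the core of the cyclic AMP response element with the letters TGACG. Each is written 5′ to 3′ in the direction of its gene. Col5a1 is at chr3:31606630-31606879 on the plus strand, Col5a2 at chr9:55090152-55090401 on the minus strand, Col5a3 at chr8:27625949-27626198 on the minus strand and Col7a1 at chr8:118483114-118483363 on the plus strand.
Col5a1: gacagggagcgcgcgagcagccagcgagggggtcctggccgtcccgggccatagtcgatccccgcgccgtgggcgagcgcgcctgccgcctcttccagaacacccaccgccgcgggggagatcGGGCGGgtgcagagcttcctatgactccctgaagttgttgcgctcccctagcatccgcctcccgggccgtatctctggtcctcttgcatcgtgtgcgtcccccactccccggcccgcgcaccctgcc
Col5a2: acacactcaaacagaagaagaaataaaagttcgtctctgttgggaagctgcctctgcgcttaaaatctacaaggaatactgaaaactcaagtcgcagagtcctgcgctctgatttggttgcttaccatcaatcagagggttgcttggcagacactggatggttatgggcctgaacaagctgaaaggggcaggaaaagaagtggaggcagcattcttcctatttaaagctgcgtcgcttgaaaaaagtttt
Col5a3: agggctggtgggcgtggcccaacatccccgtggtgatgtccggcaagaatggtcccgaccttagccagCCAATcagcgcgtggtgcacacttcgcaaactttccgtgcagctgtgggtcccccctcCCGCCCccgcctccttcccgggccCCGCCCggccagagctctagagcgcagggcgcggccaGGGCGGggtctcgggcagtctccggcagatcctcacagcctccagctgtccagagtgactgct
Col7a1: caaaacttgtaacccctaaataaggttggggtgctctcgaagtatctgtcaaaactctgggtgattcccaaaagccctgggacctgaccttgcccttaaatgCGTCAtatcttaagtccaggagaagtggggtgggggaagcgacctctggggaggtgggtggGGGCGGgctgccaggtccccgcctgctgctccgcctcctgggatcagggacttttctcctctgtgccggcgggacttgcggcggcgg
Col5a3, whose transcript rose, holds 1 CCAAT box at 182 to 178 bases before the start and 3 GC boxes. Col5a1 holds 1 GC box at 127 to 122, and Col5a2 holds none of the 4 motifs. Col7a1 holds 1 GC box at 87 to 82 and 1 TGACG at 148 to 144. The windows of Col5a1 and Col5a3 are rich in G and C, at 71.6% and 68.8%, while Col5a2 has 44.8%, below the median of 51.2% over all promoters in the table.

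Col5a3 was the fibrillar gene with the largest rise under dbcAMP. Its level was 2279, 2406 and 2528 CPM in undifferentiated, 4579, 4468 and 5546 CPM in differentiated and 2663, 2585 and 2575 CPM in dedifferentiated libraries. The differentiated libraries stood above all others. Col5a3 rose by 0.96 on the log2 scale (SE 0.101, adjusted p = 1.47e-05), fell by 0.89 after withdrawal (SE 0.101, adjusted p = 5.30e-05) and was then not called against undifferentiated cells (log2 0.07, adjusted p = 0.644). Col5a2 went the other way, from 4667, 5082 and 5020.1 CPM to 1100.2, 1215 and 1483 CPM under dbcAMP and 3374, 3166 and 3203 CPM after it. No library of one stage overlapped those of another. It fell 4.06-fold (log2 -2.02, SE 0.114, adjusted p = 1.51e-07), rose 2.59-fold after withdrawal (adjusted p = 5.57e-06) and remained 1.57-fold below the start (adjusted p = 0.00144). Col5a1, the chain shared by most type V molecules, was at 4940.1, 4156 and 4227 CPM, then 1475, 1469.8 and 1939 CPM and then 2080.5, 1573 and 1629 CPM. Here the later stages overlapped, and both lay below all undifferentiated libraries. Col5a1 fell by 1.51 under dbcAMP (SE 0.154, adjusted p = 1.12e-05) and was still 2.61-fold lower after withdrawal (adjusted p = 8.12e-05), with no call between the later stages (log2 0.13, adjusted p = 0.509).

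Count ratios of the type V genes took a separate range at each stage. Counts of Col5a3 per count of Col5a2 were 0.488, 0.473 and 0.504 in undifferentiated, 4.16, 3.68 and 3.74 in differentiated and 0.789, 0.816 and 0.804 in dedifferentiated libraries. The 3 stages did not overlap, and this ratio had the largest log2 difference of the 18, 2.98 under dbcAMP. Col5a3 per Col5a1 averaged 0.546 ± 0.0741, 3.00 ± 0.126 and 1.50 ± 0.194 (SD, n = 3 each), again without overlap. Col5a1 per Col5a2 averaged 0.906 ± 0.133, 1.29 ± 0.0682 and 0.541 ± 0.0661, so that the dedifferentiated libraries were the lowest of the 3 stages and the differentiated ones the highest. Between dedifferentiated and undifferentiated cells the log2 differences of the 3 type V ratios were 0.72, 1.46 and -0.74 in the order given, and the libraries of these stages did not overlap.

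**Figure D2:**
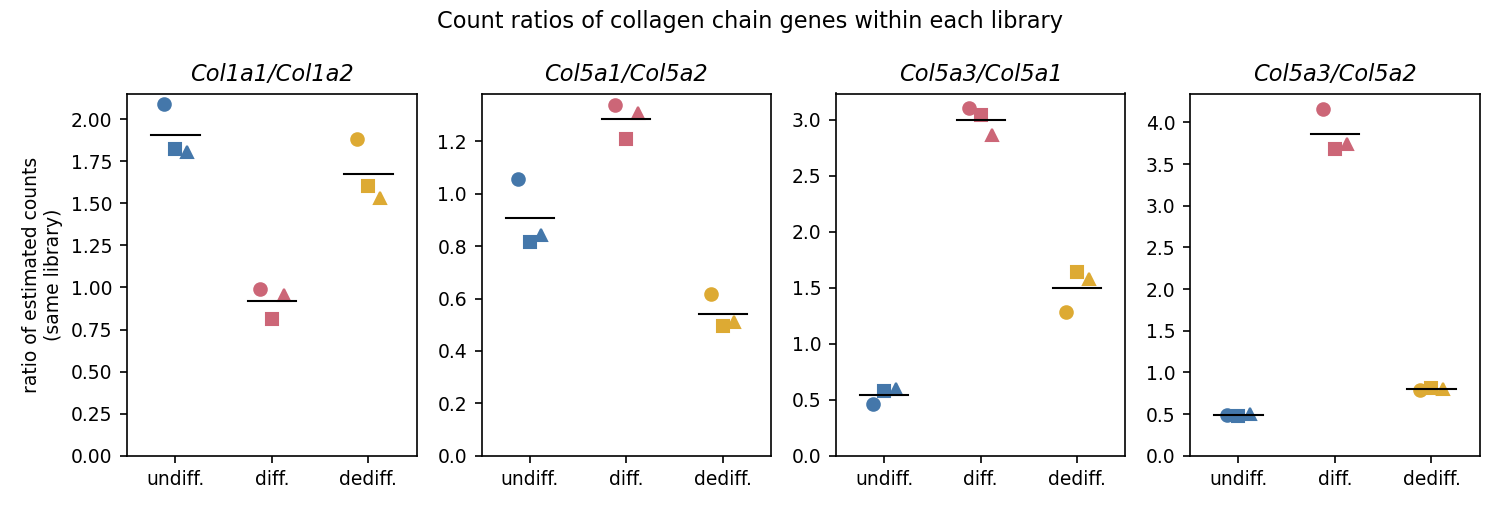
Ratio of the estimated counts of 2 collagen genes within each library, for 4 pairs of genes and 3 stages, on linear axes from 0. Points are libraries, with a marker for each replicate, and black lines are stage means. The mean Col5a3 to Col5a2 ratio was 0.488 before, 3.86 under and 0.803 after dbcAMP.

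Of the remaining fibrillar genes, Col27a1 and Col11a1 fell under dbcAMP and rose after withdrawal. Col27a1, a fibrillar collagen best known from cartilage, was at 1285, 1638 and 1553 CPM, 355, 346 and 440.0 CPM and 763, 663 and 615 CPM at the 3 stages in order. No stages overlapped, and dedifferentiated libraries lay in between. It fell 4.09-fold (log2 -2.03, SE 0.131, adjusted p = 3.68e-07), rose 1.81-fold (adjusted p = 0.000341) and was left 2.27-fold lower than at the start (adjusted p = 6.85e-05). Col11a1, a minor chain at the core of fibrils, was at 117, 113 and 112 CPM before, 44.7, 22.6 and 35.1 CPM under and 185, 121 and 137 CPM after dbcAMP. The differentiated libraries were lowest, and each dedifferentiated library was above each undifferentiated one. Col11a1 fell by 1.79 (SE 0.226, adjusted p = 5.67e-05) and rose by 2.12 (SE 0.228, adjusted p = 3.55e-05), the largest rise after withdrawal among the 19 genes tested. Its final step against undifferentiated cells was not called (log2 0.33, adjusted p = 0.282). Col11a2, the other type XI chain, was at 13.7, 25.6 and 27.5 CPM, 24.7, 30.9 and 30.0 CPM and 34.2, 17.3 and 21.3 CPM. Its stages overlapped and none of its changes was called, with adjusted p from 0.361 to 0.846. Counts of Col11a1 per count of Col11a2 averaged 5.66 ± 2.48, 1.24 ± 0.543 and 6.29 ± 0.796, with the differentiated libraries below all others.

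Type III collagen, which forms thin fibrils with type I and is a ligand of the receptor Adgrg1, was higher at the end than at the start. Col3a1 was at 64.7, 39.5 and 55.4 CPM in undifferentiated, 94.9, 88.9 and 92.3 CPM in differentiated and 226, 104 and 112 CPM in dedifferentiated libraries. The stages did not overlap, and dedifferentiated replicate 1 stood far above its replicates. Against undifferentiated cells, dedifferentiated cells had 2.67-fold more (log2 1.42, SE 0.279, adjusted p = 0.00343), and without that replicate the log2 change was 0.94 (adjusted p = 0.00296, and up to 0.0167 without any 1 library). The rise under dbcAMP was near the threshold (log2 0.72, SE 0.277, adjusted p = 0.0425). It was lost in 4 of 9 alternative settings and in 5 of 9 fits that left out 1 library, whose adjusted p ran from 0.00320 to 0.162. The step after withdrawal was not called (adjusted p = 0.0587), and was called without a filter on low counts (adjusted p = 0.0363) and in 4 of the 9 fits without 1 library, whose adjusted p ran from 0.0278 to 0.251. Col3a1 lies next to Col5a2 on chromosome 9 in the RefSeq annotation, and these neighbours moved in opposite directions under dbcAMP. Counts of Col3a1 per count of Col1a1 averaged 0.00308 ± 0.000501, 0.0140 ± 0.00236 and 0.0132 ± 0.00404, so that the differentiated and dedifferentiated libraries shared a range that lay above the undifferentiated one.

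**Figure D3:**
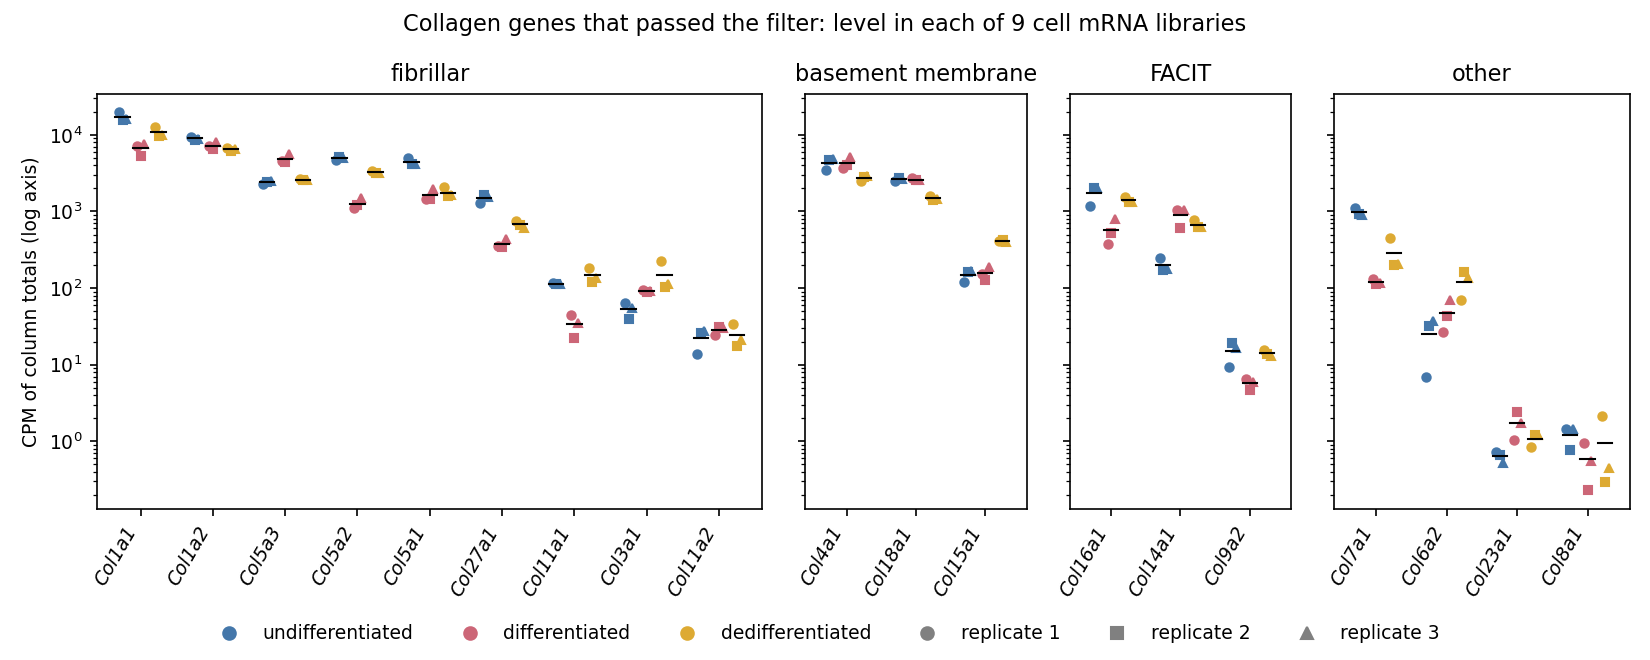
Level of the 19 collagen genes that passed the filter in each of the 9 libraries, in CPM on a log axis, with a panel for each class. Colours are stages, markers are replicates and black lines are stage means. The stages stand apart for Col5a2 and Col7a1 and overlap for Col11a2 and Col8a1.

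Basement membrane collagens did not pass the test under dbcAMP. After its withdrawal Col4a1 and Col18a1 fell and Col15a1 rose. Col4a1 encodes a chain of the type IV network of most basement membranes. Its level was 3449.9, 4682 and 4836 CPM in undifferentiated, 3727, 4101 and 5178 CPM in differentiated and 2472, 2793 and 2872 CPM in dedifferentiated libraries. The first 2 stages overlapped, and the dedifferentiated libraries lay below both. The log2 change under dbcAMP was -0.055 (SE 0.145, adjusted p = 0.760). After withdrawal Col4a1 fell by 0.66 against differentiated cells (SE 0.146, adjusted p = 0.00390) and by 0.72 against undifferentiated cells (SE 0.146, adjusted p = 0.00414). The first of these calls was lost with only the first sequencing project (adjusted p = 0.059) and kept in the other 8 alternative settings. Col18a1, a heparan sulfate-bearing collagen and the source of endostatin, was at 2475, 2723 and 2693 CPM, 2697, 2574 and 2555 CPM and 1608, 1425 and 1443 CPM. It showed the same order, with dedifferentiated libraries lowest and without overlap. Its log2 change was -0.072 under dbcAMP (adjusted p = 0.509) and -0.79 after withdrawal (SE 0.0906, adjusted p = 5.50e-05), a 1.73-fold drop that left it 1.82-fold below undifferentiated cells (adjusted p = 5.62e-05).

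Col15a1, the relative of Col18a1 that lies between basement membranes and nearby fibrils in nerve and muscle, rose where the others fell. It was at 119, 163 and 168 CPM and 154, 129 and 188 CPM in undifferentiated and differentiated libraries, which overlapped. Dedifferentiated libraries held 409, 426 and 404 CPM, above all others. The rise after withdrawal was 2.66-fold against differentiated cells (log2 1.41, SE 0.145, adjusted p = 2.65e-05) and 2.66-fold against undifferentiated cells (adjusted p = 4.81e-05). Among the 19 collagen genes tested, Col4a1, Col18a1 and Col15a1 were the ones called in both comparisons of dedifferentiated cells and not under dbcAMP, along with Col6a2, described with the remaining collagens. Col4a2, the usual partner chain that shares a start region with Col4a1, was not analysed here.

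Of the 3 FACIT genes tested, 1 rose and 2 fell under dbcAMP, and 2 rose after withdrawal, beside 59.6% and 46.4% of all genes called. Col16a1, a FACIT of fibril surfaces near basement membranes, was at 1197, 2043 and 2040.0 CPM in undifferentiated, 381, 532 and 787 CPM in differentiated and 1530.2, 1311 and 1343 CPM in dedifferentiated libraries. The differentiated libraries were lowest without overlap, and the other stages overlapped. It fell 3.24-fold (log2 -1.69, SE 0.250, adjusted p = 0.000176) and rose 2.49-fold after withdrawal (log2 1.32, SE 0.248, adjusted p = 0.00152). Against undifferentiated cells the final log2 change of -0.38 was not called (adjusted p = 0.277). Col9a2, a chain of the cartilage FACIT type IX, was called in the same directions at these steps. Its level was 9.43, 19.2 and 16.6 CPM, 6.56, 4.63 and 5.92 CPM and 15.8, 13.7 and 13.1 CPM. The differentiated libraries were again lowest. It fell by 1.45 (SE 0.246, adjusted p = 0.000459) and rose by 1.32 (SE 0.247, adjusted p = 0.00144).

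Col14a1, a FACIT that binds fibrils of type I collagen, rose under dbcAMP and was still high after withdrawal. Its level went from 245, 173 and 180.1 CPM to 1061, 603 and 1048 CPM and then 769, 621 and 629 CPM. Each library of the later stages was above each undifferentiated one, and the later stages overlapped, with differentiated replicate 2 below its replicates. The rise was 4.34-fold (log2 2.12, SE 0.227, adjusted p = 1.65e-05), the largest under dbcAMP among the 19 genes tested, and 3.25-fold remained at the end (SE 0.224, adjusted p = 0.000273). The step after withdrawal was not called (log2 -0.41, adjusted p = 0.142). Without differentiated replicate 2 it was -0.64 and called (adjusted p = 0.014), and over the 9 such fits the adjusted p reached 0.377.

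**Figure D4:**
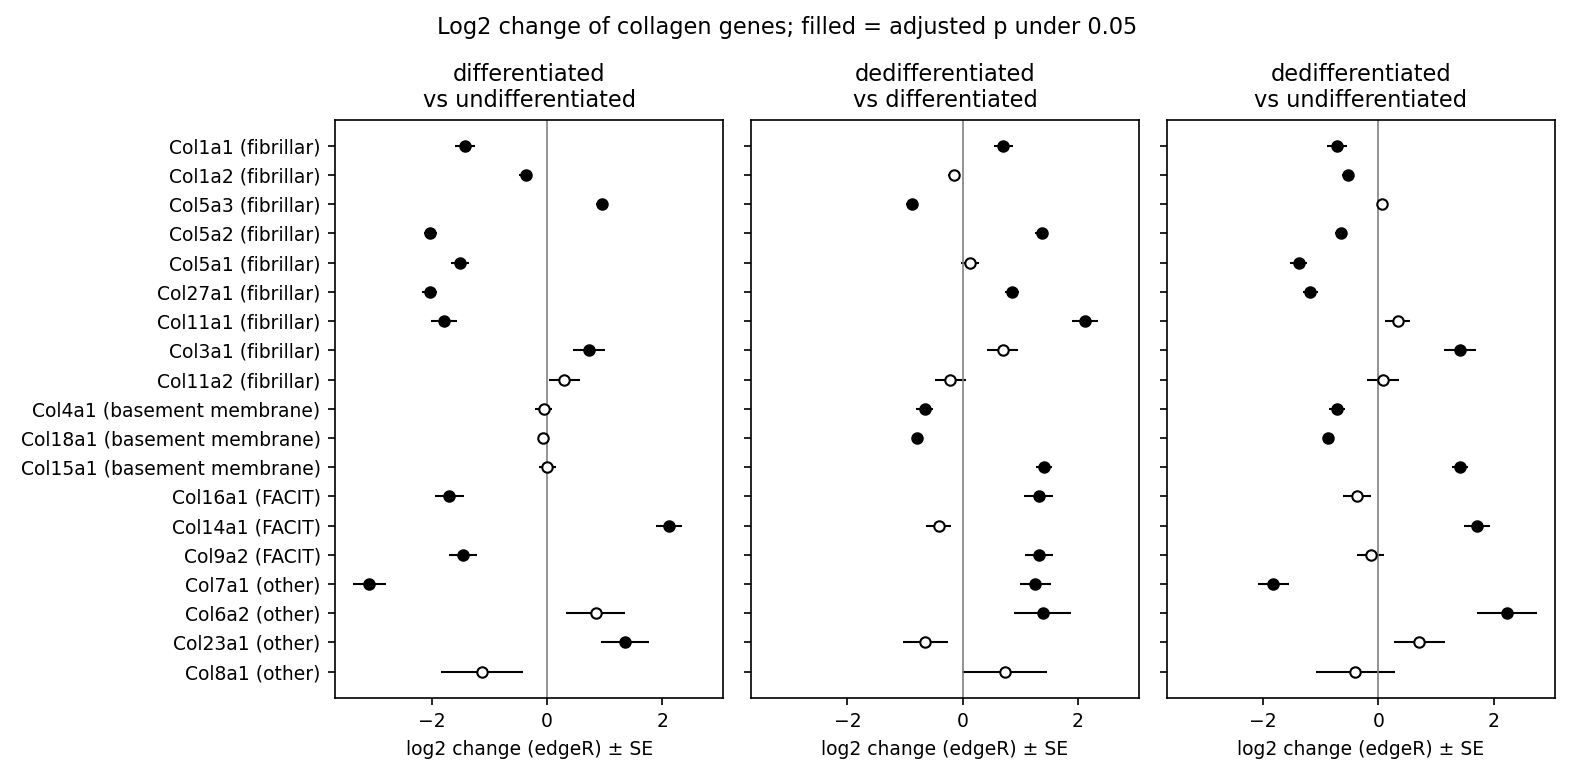
Log2 change of the 19 collagen genes tested in the 3 comparisons, with bars of 1 standard error from edgeR. Filled points passed an adjusted p of 0.05. Col7a1 had the largest fall and Col14a1 the largest rise under dbcAMP, and Col6a2 the largest rise of dedifferentiated over undifferentiated cells.

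Col7a1, the collagen of anchoring fibrils that tie basement membranes to the matrix beneath, had the largest log2 change of the 19 collagen genes that passed the filter. Undifferentiated libraries held 1111, 917 and 895 CPM, differentiated ones 131, 115 and 115 CPM and dedifferentiated ones 445, 202 and 208 CPM. The stages did not overlap, and dedifferentiated replicate 1 stood well above replicates 2 and 3. Col7a1 fell 8.46-fold under dbcAMP (log2 -3.08, SE 0.286, adjusted p = 5.64e-06) and rose 2.39-fold after withdrawal (log2 1.26, SE 0.270, adjusted p = 0.00331). Without dedifferentiated replicate 1 that rise was 0.79 (adjusted p = 0.000785, and up to 0.0149 without any 1 library). It stayed 3.54-fold below undifferentiated cells (adjusted p = 0.000609).

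Col6a2, a chain of the beaded filaments of type VI collagen, was highest after withdrawal. It was at 6.85, 31.6 and 37.2 CPM, 26.8, 43.5 and 70.6 CPM and 69.0, 161 and 136 CPM at the 3 stages, with a spread between replicates wider than for most collagen genes. The first 2 stages overlapped, the differentiated and dedifferentiated libraries overlapped too, and each dedifferentiated library was above each undifferentiated one. The rise over undifferentiated cells was 4.69-fold (log2 2.23, SE 0.523, adjusted p = 0.00906). The rise over differentiated cells (log2 1.39, SE 0.500, adjusted p = 0.0425) was lost in 2 of 9 alternative settings and in 5 of 9 fits without 1 library, with adjusted p up to 0.135. The change under dbcAMP was not called (log2 0.84, adjusted p = 0.182). Of the 9 alternative settings 1 called it, an edgeR fit that took the replicate numbers as blocks (log2 0.96, adjusted p = 0.00803). Col6a1, its neighbour on chromosome 20, was not analysed here.

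Col23a1, a collagen that spans the cell membrane, was barely above the counting floor. It was at 0.725, 0.673 and 0.523 CPM in undifferentiated, 1.03, 2.39 and 1.73 CPM in differentiated and 0.848, 1.19 and 1.20 CPM in dedifferentiated libraries. Differentiated libraries were above undifferentiated ones. The rise under dbcAMP (log2 1.36, SE 0.416, adjusted p = 0.0160) rested on 7 to 9 counts in each undifferentiated library. It was lost without undifferentiated replicate 3 (adjusted p = 0.0657), without differentiated replicate 2 (adjusted p = 0.071) and with only the first sequencing project (adjusted p = 0.164, the highest), and was called in the other fits. Col8a1, a short-chain collagen, ranged from 0.232 to 2.12 CPM and had no called change, with adjusted p from 0.195 to 0.704.

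The 8 collagen genes that did not pass the filter were near or at 0. Col9a1 had no count in any library. Col2a1, the fibrillar collagen of cartilage, reached at most 0.509 CPM (6 counts). Col26a1 reached 0.54 CPM (7 counts). Col4a3, Col4a4, Col13a1 and Col17a1 had at most 3 counts in any library. Col6a4 had no count in the 6 undifferentiated and differentiated libraries and 9, 3 and 6 counts in the dedifferentiated ones. With the filter off, Col26a1 under dbcAMP (adjusted p = 0.0276) and Col6a4 after withdrawal (adjusted p = 0.0105 against differentiated and 0.0213 against undifferentiated cells) were called on these few counts.

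Grouped by course, Col1a1, Col5a2, Col27a1 and Col7a1 were called lower under dbcAMP, higher after withdrawal and still lower than at the start. Col11a1, Col16a1 and Col9a2 were called lower and then higher, with no call against the start. Col1a2 and Col5a1 were called lower at both later stages, and Col14a1 and Col3a1 higher at both. Col5a3 was called higher under dbcAMP, then lower, with no call against the start. The 3 comparisons share libraries, so these courses describe the calls and were not tested as courses.

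RefSeq promoter windows of 250 bases were available for 15 of the 19 collagen genes tested and were searched on both strands. The GC box GGGCGG was in 11 of the 15, beside 30.5% of all 33469 windows in the table, and was missing from Col5a2, Col1a2, Col15a1 and Col9a2. CCAAT was in Col11a1, Col1a2, Col4a1 and Col5a3 (34% of all windows). TATAAA was in Col1a2 (12.9% of all windows). The full cyclic AMP response element TGACGTCA was in none (1.59% of all), and its core TGACG, which is part of it, was in Col7a1 (18.2% of all). AP-1 (TGANTCA, 6.34% of all), SOX (ACAAAG, 16.3% of all) and SMAD (GTCTAGAC, 0.173% of all) motifs were in none of the 15. A match describes letters in this window and not a bound site, and a missing match says nothing of the factor.

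Collagen chains need enzymes and a chaperone to fold in the endoplasmic reticulum, and these genes changed in a mixed way. Of 18 genes for folding and modification tested, 5 rose and 9 fell under dbcAMP, 5 rose and 4 fell after withdrawal, and 1 was higher and 8 lower in dedifferentiated than undifferentiated cells. Over all genes tested, 59.6%, 46.4% and 29.4% were called in these comparisons. The list's median log2 changes were -0.21, 0.03 and -0.17, beside 0.05, -0.01 and 0.02 over all genes tested. Serpinh1, the collagen chaperone HSP47, was at 2318, 2335 and 2256 CPM, 1146, 1052 and 1201 CPM and 1569.8, 1547 and 1504 CPM in stage order. Its stages did not overlap and followed the order of Col1a1. Serpinh1 fell 2.12-fold (adjusted p = 1.99e-06) and rose 1.37-fold after withdrawal (adjusted p = 0.00165). The lysyl hydroxylases split, since Plod1 fell by 1.53 on the log2 scale under dbcAMP (adjusted p = 1.17e-07) and Plod2 rose by 1.04 (adjusted p = 0.0139). The Plod2 call was lost without differentiated replicate 3 (adjusted p = 0.0548) and with only the first sequencing project (adjusted p = 0.0501), and held in the other fits. The prolyl 4-hydroxylase subunits split as well. P4ha2 went from 115 ± 12.2 to 38.2 ± 8.86 CPM (log2 -1.65, adjusted p = 6.18e-06), and P4ha1 from 140.2 ± 15.8 to 209 ± 20.0 CPM (log2 0.51, adjusted p = 0.00125). Both moved back after withdrawal, by log2 0.67 for P4ha2 and -0.61 for P4ha1. P4ha3, named after its values were seen, went from 27.9 ± 4.51 to 3.14 ± 1.34 CPM (log2 -3.18, adjusted p = 9.63e-06). It rose by 3.22 after withdrawal (adjusted p = 1.95e-05). Ppib, a prolyl isomerase, fell under dbcAMP (log2 -0.40, adjusted p = 0.00115). P4hb, the partner subunit of the prolyl 4-hydroxylases, had a log2 change of -0.22 (adjusted p = 0.0380), a call lost in 2 of 9 alternative settings and 5 of 9 fits without 1 library.

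Outside the cell, procollagens are cut and the fibrils are cross-linked by lysyl oxidases. Of 11 such genes tested, 5 rose and 5 fell under dbcAMP, 2 rose and 5 fell after withdrawal, and 4 were higher and 3 lower at the end than at the start, beside 59.6%, 46.4% and 29.4% of all genes called. Loxl2, which cross-links type IV collagen, was at 201, 155 and 163 CPM, 14.1, 23.8 and 28.1 CPM and 47.1, 43.4 and 43.3 CPM. Its stages did not overlap. It fell 8.23-fold (log2 -3.04, SE 0.208, adjusted p = 5.76e-07) and was still 4.02-fold lower after withdrawal (adjusted p = 3.78e-05). Its relatives Loxl1 and Loxl3 rose under dbcAMP, by 0.99 (adjusted p = 3.06e-06) and 0.79 (adjusted p = 0.000245), and fell after withdrawal by 0.73 and 0.82. Lox itself, at about 1 CPM, had no called change. Bmp1, the protease that trims fibrillar procollagens at the carboxyl end, fell under dbcAMP (log2 -0.39, adjusted p = 0.00216) and after it (log2 -0.24, adjusted p = 0.0398), where the call was lost in 2 of 9 alternative settings and 7 of 9 fits without 1 library. Adamts2, which trims the amino end, fell under dbcAMP (log2 -0.61, adjusted p = 0.0155).

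Of 7 collagen receptors tested, 1 rose and 5 fell under dbcAMP, 4 rose and 1 fell after withdrawal, and 3 were lower at the end than at the start. Over all genes tested, 59.6% were called under dbcAMP (27.9% lower), 46.4% after withdrawal and 29.4% against the start. Adgrg1, the adhesion receptor that binds type III collagen, was at 599, 695 and 650.0 CPM, 98.4, 125 and 146 CPM and 424, 505 and 535 CPM. The differentiated libraries were lowest, without overlap. It fell 5.50-fold (log2 -2.46, adjusted p = 1.46e-07) and rose 4.01-fold after withdrawal (adjusted p = 1.55e-06). Itga1, the integrin subunit that binds types I and IV, was at 149 ± 52.0, 31.8 ± 3.71 and 130.4 ± 16.1 CPM and fell 4.87-fold before it rose 4.14-fold (adjusted p = 7.60e-06 and 3.51e-05). Ddr1, a receptor kinase for collagen, fell by 0.65 (adjusted p = 6.49e-05) and rose by 0.50 (adjusted p = 0.000694). Itgb1, the partner of Itga1, fell by 0.43 (adjusted p = 0.00155). Ddr2, the related kinase of connective tissue cells, was at about 1 CPM with no called change. Adgrg6, the type IV collagen receptor needed for myelination, was not analysed here.

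Of 4 genes for proteins of the basement membrane other than collagen, 3 rose and 1 fell under dbcAMP, where 59.6% of all genes tested were called. Lamc1, a laminin chain, was at 1151, 1349.6 and 1495 CPM, 2751, 2999 and 3746 CPM and 1739, 1652 and 1692 CPM. The differentiated libraries were highest. It rose by 1.19 (adjusted p = 1.26e-05) and fell by 0.89 after withdrawal (adjusted p = 0.000196). Lama4, another laminin chain, rose by 0.94, and Nid2, which bridges laminin and type IV collagen, rose by 1.82 (adjusted p = 0.000204 and 2.26e-06). Agrn, a heparan sulfate proteoglycan of basement membranes, went from 2052 ± 319.9 to 224 ± 18.6 CPM, a 9.56-fold fall (adjusted p = 8.28e-09), and rose 5.42-fold after withdrawal (adjusted p = 1.47e-07).

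Of 10 collagen-binding proteoglycans and glycoproteins tested, 3 rose and 3 fell under dbcAMP, 2 rose and 1 fell after withdrawal, and 1 was higher and 4 lower at the end, beside 59.6%, 46.4% and 29.4% of all genes called. Postn, a matricellular protein that binds type I collagen and Bmp1, was at 115, 126 and 166 CPM, 915, 1007 and 1069.7 CPM and 31.6, 71.0 and 89.9 CPM. Its differentiated libraries were highest and its dedifferentiated ones lowest. It rose 7.05-fold (adjusted p = 1.32e-05), fell 15.4-fold (adjusted p = 4.23e-06) and ended 2.19-fold below the start (adjusted p = 0.0128). Tgfbi, its relative, went the other way, with a log2 change of -2.81 under dbcAMP (adjusted p = 1.19e-06) and 1.09 after withdrawal (adjusted p = 0.00137). Sparc, a collagen-binding glycoprotein, was at 11964 ± 1229, 10431 ± 923 and 9607 ± 617 CPM and had no called change, although its lower level at the end than at the start (log2 -0.37, adjusted p = 0.0545) was called in 6 of 9 alternative settings. Fn1, the fibronectin on which fibrils assemble, was at 119, 648 and 721 CPM, 727, 852 and 1279 CPM and 365, 495 and 504 CPM. Its differentiated libraries were above all others, and undifferentiated replicate 1 stood far below its replicates. None of its changes was called (log2 0.89, adjusted p = 0.133 under dbcAMP and log2 -1.05, adjusted p = 0.0977 after withdrawal). Without undifferentiated replicate 1, the step after withdrawal was called (adjusted p = 0.00114). Of 3 collagen-degrading genes tested, 1 rose and 1 fell under dbcAMP (59.6% of all genes called). Ctsk, at 0.645 to 2.73 CPM over the libraries, rose by 1.25 (adjusted p = 0.0237). That call was lost in 1 of 9 alternative settings and 4 of 9 fits without 1 library. Mmp14, a membrane-bound collagenase, fell by 0.80 (adjusted p = 0.000347). Mmp2, the gelatinase that Mmp14 activates, was not called under dbcAMP (log2 -0.36, adjusted p = 0.0595, called in 6 of 9 alternative settings) and fell by 0.69 after withdrawal (adjusted p = 0.00401).

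**Figure D5:**
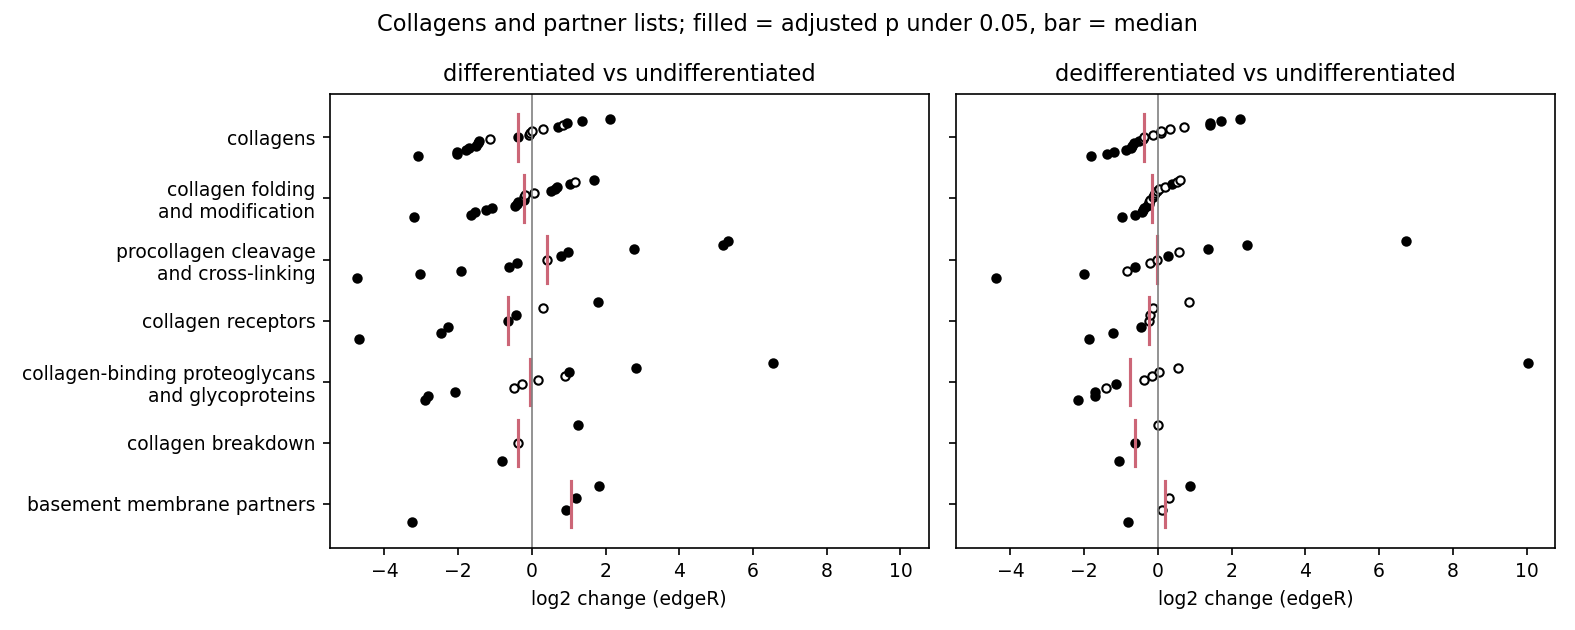
Log2 change of collagen genes and of the genes of the 6 partner lists, for differentiated and for dedifferentiated against undifferentiated cells. Each point is a gene, filled where the adjusted p from edgeR was under 0.05, and red bars are list medians. The medians under dbcAMP run from -0.65 for the receptors to 1.06 for the basement membrane partners.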

How the data were processed

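Messenger RNA of 9 cell libraries, 3 at each of 3 stages, was used; the vesicle RNA tables of the series were not used here. The deposited table holds, by its name, Salmon's estimated counts per gene, which the authors did not normalize, and 1.15% of them were fractional and were rounded. The submitters' processing notes list STAR, HISAT2, Salmon and DESeq2 1.26.0 among the tools without saying which made this table, and the genome build and annotation are not given in the sources used here. The suffixes of the column names disagree with the sample titles on the replicate number, so libraries were matched by the library code and numbered by title. All columns of per-sample values were mapped (0 unmapped).

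Genes were filtered with filterByExpr (minimum count 10), scaled by TMM and tested with edgeR 4.0.16 (limma 3.58.1, R 4.3.3), using glmQLFit and glmQLFTest over all 9 libraries, with Benjamini-Hochberg adjustment over the 10372 genes tested and a threshold of 0.05. A standard error is the size of the log2 change over the root of F. DESeq2 1.42.0 was an alternative. The edgeR script was tested on simulated data. The titles call the replicates biological, yet no label names separate animals, so p-values measure the spread between these libraries. Replicate 3 of each stage came from another sequencing project than replicates 1 and 2, so project and stage are balanced.

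Collagen genes with a mean of 10 CPM or more, or among the 3 of highest mean in their class, are given in every library, and the others by range. Partner genes named are the 4 of highest mean in each list and a few added by name. The members, the classes and the partner and marker lists were chosen with earlier results of these data known. The count ratios were added after the values were seen. Depth limits what can be said of genes with a few counts. Promoters and gene neighbours come from RefSeq (GRCr8), which matched all 27 collagen genes by symbol and held a promoter for 22.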

Additional observations from a re-analysis of the deposited data

How the results depend on the processing

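For each of the 57 collagen gene results, 9 alternative settings and 9 fits without 1 library were run, of which 1 setting, library totals without ribosomal RNA rows, was chosen after seeing the data and changed none. No called collagen result turned its direction in any of them, and 491 of 513 refits by setting and 485 of 513 refits without 1 library kept direction and call. Collagen genes called ran from 11 to 13 under dbcAMP, 11 to 13 after withdrawal and 12 to 12 against the start without 1 library, and were 10, 10 and 10 with only the first sequencing project, where fewer libraries remain and the share of calls that were higher under dbcAMP was 20% in place of 30.8%. That share was 75%, and 80% in the first project, after withdrawal. Class sums without the most abundant member had a log2 ratio of -0.53 for fibrillar (-0.83 with it), 2.08 for FACIT (-0.42) and 0.87 for other collagens (-2.56) under dbcAMP. After withdrawal they were -0.045 for fibrillar (0.22) and -0.41 for FACIT (0.50), and against the start 1.68 for FACIT (0.08) and 2.20 for other collagens (-1.29), since Col1a1, Col16a1 or Col7a1 is then missing.

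Results that turned sign were not called in either fit, and the cause was not tested. Col15a1 under dbcAMP had -0.029 with DESeq2 size factors, -0.038 with TMM without the 10 most abundant genes, -0.023 without a filter, -9e-04 with the project as a covariate, -0.029 with DESeq2's Wald test and -0.071 in the first project. Col4a1 under dbcAMP had 0.0042 with library size alone. Against the start, Col8a1 had 0.078 in the first project, Itga1 0.0092 and Fn1 0.12 there, and Ctsk 0.037 and Loxl3 0.021 with library size alone. Without 1 library, the range under dbcAMP was -0.14 to 0.13 for Col15a1, -0.19 to 0.034 for Col4a1, -0.19 to 0.59 for Ddr2 and -0.14 to 0.82 for Lox. After withdrawal it was -0.0014 to 0.26 for Col5a1, -0.58 to 1.26 for Col8a1 and -0.32 to 0.69 for Lox. Against the start it was -0.27 to 0.25 for Col11a2, -0.36 to 0.054 for Col9a2, -0.26 to 0.51 for Ctsk, -0.62 to 0.19 for Fn1 and -0.10 to 0.075 for Loxl3.

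Same-numbered libraries correlated at 0.028 to 0.304 (9 pairs) and others at -0.232 to 0.102 (18 pairs) in their deviations from stage means. Not every pair passed 0.1, so the numbers were not taken as pairs. With a replicate block, 14, 13 and 12 collagen genes were called in place of 13, 12 and 12, which added Col6a2 under dbcAMP (adjusted p = 0.00803) and Col3a1 after withdrawal (adjusted p = 0.0201), and Ctsk and Fn1 against the start had 0.011 and 0.07. The block also called Fn1 under dbcAMP (1.10, adjusted p = 0.0269) and after withdrawal (-1.03, adjusted p = 0.0398). Library size alone moved the median of all genes to 0.11 under dbcAMP from 0.05.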

Other observations

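Several partner genes outside the rule for named genes had the widest log2 changes and are named after their values were seen. Tll1, a relative of the procollagen protease Bmp1, was at 1.45, 1.35 and 1.05 CPM in undifferentiated, 68.4, 41.9 and 48.5 CPM in differentiated and 9.75, 5.96 and 5.49 CPM in dedifferentiated libraries, and its rise under dbcAMP was called (log2 5.32, adjusted p = 1.86e-07, edgeR). Its stages did not overlap, and dedifferentiated cells lay in between. The related procollagen proteases Adamts3 and Adamts14 moved in opposite directions under dbcAMP. Adamts3 was at 0.0806, 0.0961 and 0.262 CPM, 8.33, 3.94 and 6.66 CPM and 22.3, 17.0 and 15.0 CPM in stage order, called higher under dbcAMP (adjusted p = 5.58e-06) and higher again after withdrawal (adjusted p = 0.00123). Adamts14 was at 7.82, 6.25 and 11.9 CPM, 0.737, 0.0772 and 0.185 CPM and 0.678, 0 and 0.527 CPM, called lower under dbcAMP (adjusted p = 0.000109) and with no call after withdrawal (adjusted p = 0.766). Itga11, an integrin subunit for fibrillar collagen, was at 5.24, 4.33 and 3.21 CPM, 0.295, 0 and 0.185 CPM and 1.95, 0.795 and 0.827 CPM and was called lower under dbcAMP (adjusted p = 9.08e-05).

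Vwf, which binds collagen and is also a marker of endothelial cells, had no count in the undifferentiated libraries, 1.11, 0.849 and 0.802 CPM in the differentiated and 14.6, 7.95 and 7.90 CPM in the dedifferentiated ones. Of the other 6 endothelial markers in the table, Cdh5 and Emcn had at most 3 counts in any library, and Pecam1 and Kdr at most 9. Tek was at 0.645 to 2.21 CPM in undifferentiated, 4.79 to 7.56 CPM in differentiated and 3.28 to 7.29 CPM in dedifferentiated libraries. Egfl7 was at 7.50 to 9.51, 0.884 to 1.85 and 5.09 to 7.30 CPM. Their part in the Vwf values was not tested.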
